A study of Mus musculus with 12 samples.

Results

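36 genes of glutamate signalling were examined in bulk RNA-seq of the mouse ventral spinal cord at E12.5, out of 45777 gene IDs in the tables. They were chosen as a fixed list of NCBI gene IDs matched to mouse symbols, with earlier results of these data known. The receptor genes are the AMPA subunits *Gria1* to *Gria4*, the NMDA subunits *Grin1*, *Grin2a* to *Grin2d*, *Grin3a* and *Grin3b*, the kainate subunits *Grik1* to *Grik5*, the delta receptor gene *Grid1* and the metabotropic receptors *Grm2* to *Grm8*. The others are the vesicular glutamate transporters *Slc17a6* to *Slc17a8*, the plasma membrane transporters *Slc1a1* to *Slc1a3*, the scaffold genes *Dlg1* to *Dlg4* and the auxiliary subunits *Neto1* and *Neto2*. All 36 were listed in every library, and 32 of them reached the mean of 0.5 TPM (transcript abundance scaled for transcript length and library size) that a test required.

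Glutamate is the main excitatory transmitter of the spinal cord. Vesicular transporters load it into synaptic vesicles, ionotropic receptors (AMPA, NMDA, kainate) open as cation channels when it binds, metabotropic receptors signal through G proteins, and plasma membrane transporters on glia and neurons clear it from the extracellular space. Membrane-associated guanylate kinases of the Dlg family hold receptors at the postsynaptic density, and Neto proteins change the gating of kainate and NMDA receptors. In the embryonic spinal cord these genes are used by postmitotic motor neurons and interneurons, while *Slc1a3* is known as a gene of radial glia.

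The libraries came from brachial and lumbar cords of *Isl2* +/- embryos (heterozygotes, the control genotype) and *Isl2* -/- embryos (KO), with 3 libraries in each of the 4 groups, so that every control carried 1 mutant allele and no wild-type embryo was included. *Isl2* encodes a LIM-homeodomain transcription factor of postmitotic motor neurons, and the KO is constitutive. Ventral cord was cut out around the green fluorescence of an *Hb9::GFP* transgene, in which the motor neuron promoter Hb9 (*Mnx1*) drives GFP, so the tissue was enriched for motor neurons but not sorted, and RNA was depleted of ribosomal RNA rather than selected for poly(A). The design names 3 animals of each genotype and does not tie libraries to animals, so brachial and lumbar libraries may share embryos and the p-values measure the spread between libraries.

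Aligned depth, taken from the ratio of coverage to FPKM, was 4.48 to 6.64 Gb per library. A group of 5 small noncoding RNA genes took 23.7 to 38.2% of TPM, and every level below is therefore TPM rescaled by a size factor per library. *Isl2* itself stood at 8.73, 8.33 and 9.72 TPM in the 3 brachial heterozygote libraries and at 6.04, 7.28 and 4.47 TPM in the 3 brachial KO libraries. At the lumbar level it stood at 10.3, 8.43 and 9.43 TPM in the heterozygotes and at 7.33, 6.53 and 8.24 TPM in the KO. All 3 KO libraries lay below all 3 heterozygote libraries at both levels, with an exact two-sided permutation p = 0.1 at each, the smallest that 3 against 3 libraries can give. Which part of the transcript the allele removes was not used here. Every marker of motor neurons and of neurons in general that was listed (9 and 8 genes) reached the 0.5 TPM required for a test.

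Across all 12 libraries the most abundant transcript of the set was *Slc1a3*, the glial glutamate transporter GLAST, at 89.6 ± 19.4 TPM (SD, n = 12). TPM is a level per transcript length, so it can be compared between genes. The next in order were *Gria4* at 58.0 ± 12.6, *Slc17a6* at 53.1 ± 3.72, *Gria2* at 50.9 ± 6.51 and *Neto2* at 42.9 ± 6.56 TPM (SD, n = 12 each). The ranges of neighbours in this order overlapped over the 12 libraries, although *Slc1a3* was above *Gria4* within each library.

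Each class was led by one or a few members. *Slc17a6*, which encodes the vesicular transporter VGLUT2, held 99.4% of the summed TPM of the vesicular transporters, and its 12 values ran from 45.1 to 60.5 TPM. The other vesicular transporters were near 0, with *Slc17a7* (VGLUT1) at up to 0.195 and *Slc17a8* (VGLUT3) at up to 0.377 TPM. Among the plasma membrane transporters *Slc1a3* held 64.1%, *Slc1a2* (GLT-1, the main transporter of mature astrocytes) 25.8% and *Slc1a1* (EAAC1, a neuronal transporter) 10.2%.

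Within the AMPA receptors, which carry most fast excitation, *Gria4* and *Gria2* together led the summed TPM, with 43.6% and 38.7%. *Gria2* encodes the subunit that keeps the channel nearly impermeable to calcium. *Gria1* stood at 16.5 ± 2.26 and *Gria3* at 6.81 ± 1.58 TPM (SD, n = 12). The kainate receptor genes were more even, led by *Grik5* (16.0 ± 3.81 TPM) and *Grik2* (14.3 ± 3.53 TPM), whose values in single libraries overlapped. *Grik3* followed at 10.2 ± 2.12, *Grik1* at 5.90 ± 0.906 and *Grik4* at 5.38 ± 0.762 TPM (SD, n = 12). *Grik1* to *Grik3* encode low-affinity subunits that form channels on their own, and *Grik4* and *Grik5* encode high-affinity partners.

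NMDA receptor transcripts were less abundant than the leading AMPA subunits. *Grin2b*, the main glutamate-binding subunit of embryonic neurons, stood at 7.77 ± 3.62 TPM (SD, n = 12) and *Grin1*, the subunit every NMDA receptor needs, at 5.92 ± 2.56 TPM. *Grin3a*, a glycine-binding subunit, followed at 4.51 ± 2.38 TPM. *Grin2c* (1.85 ± 0.929 TPM), *Grin2a* (1.61 ± 0.447) and *Grin2d* (1.18 ± 0.609) overlapped in range, and *Grin3b* was at up to 0.138 TPM and listed at 0 in some libraries. The metabotropic receptors were led by *Grm3* (9.48 ± 1.99 TPM), *Grm7* (6.27 ± 2.71) and *Grm5* (5.30 ± 2.11), with *Grm8* (2.53 ± 0.733), *Grm4* (2.02 ± 0.549) and *Grm2* (0.723 ± 0.281) below them, and *Grm6*, known from retinal bipolar cells, was at 0.0513 TPM or less.

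The scaffolds were ordered *Dlg3* (36.5 ± 2.73 TPM), *Dlg4* (32.5 ± 3.17), *Dlg1* (16.7 ± 1.47) and *Dlg2* (10.2 ± 2.21). *Dlg4* encodes the scaffold best known from mature postsynaptic densities, and *Dlg3* a relative that is prominent in development. Of the Neto genes, *Neto2* held 97.7% and *Neto1* stood at 1.09 ± 0.731 TPM. *Grid1*, the delta receptor, was at 7.08 ± 1.75 TPM. The 4 genes under the minimum were *Grin3b*, *Grm6*, *Slc17a7* and *Slc17a8*, and no fold change is given for them.

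**Figure D1:**
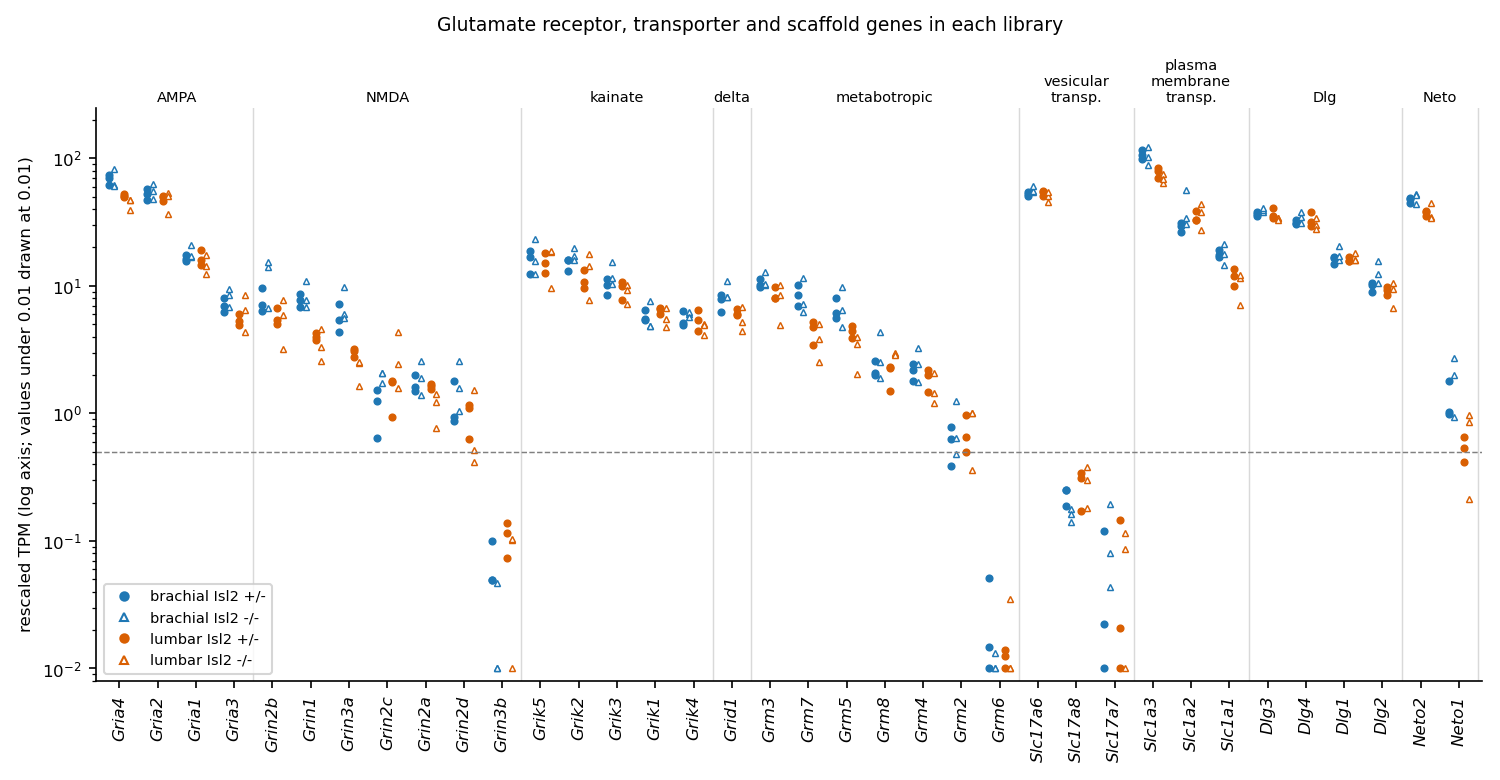
Rescaled TPM of each of the 36 genes (log axis) in the 12 libraries, grouped by class, with brachial libraries in blue, lumbar in orange, heterozygotes as filled circles and KO as open triangles. *Slc1a3* reaches 123 TPM, and the 4 genes under the dashed line at 0.5 TPM were not tested.

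The first comparison set the 6 lumbar against the 6 brachial libraries, with genotype as a covariate, to ask how the set differs along the axis of the cord. Of the 32 genes tested 10 were lower at the lumbar level, namely *Neto1*, *Grin3a*, *Grin1*, *Grm7*, *Grm5*, *Slc1a1*, *Slc1a3*, *Gria4*, *Grid1* and *Neto2*, and 0 were higher (limma, adjusted p under 0.05). That is 31.2% of the set. Over all 16706 genes tested 18.5% passed in either direction and 9.62% were lower at the lumbar level. The median log2 difference of the set was -0.38, against 0.01 over all genes, and 28 of 32 values were negative. Without adjustment 16 genes of the set had a p under 0.05, all lower, against 32.2% of all genes in either direction, the others being *Gria3*, *Grin2b*, *Grik2*, *Grm3*, *Grm4* and *Dlg2*. In bulk tissue fewer cells of a type and less RNA per cell cannot be told apart.

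Of the 6 NMDA subunits tested 2 were lower, and the class had a median log2 difference of -0.72, against -0.28 for AMPA, -0.18 for kainate and -0.41 for metabotropic receptors. *Grin1* (chr2:25291177-25319253, minus strand) ran from 6.79 to 11.0 with a median of 7.73 TPM in the 6 brachial libraries and from 2.56 to 4.60 with a median of 3.85 TPM in the 6 lumbar libraries. Every lumbar library lay below every brachial one, and the log2 difference was -1.10 (SE 0.15, adjusted p = 7.23e-04, limma). *Grin3a* (chr4:49661611-49846023, minus strand) ran from 4.35 to 9.79 with a median of 5.81 TPM at the brachial level and from 1.63 to 3.22 with a median of 2.64 TPM at the lumbar level. Again no lumbar library reached a brachial one, with a log2 difference of -1.24 (SE 0.20, adjusted p = 0.00166, limma). *Grin2b* was lower on average without passing, at 9.87 ± 3.98 against 5.67 ± 1.56 TPM (SD, n = 6 each) and an adjusted p = 0.0565 by limma. *Grin2a* and *Grin2d* had log2 differences of -0.39 and -0.68 and did not pass either. *Grin2c*, a subunit best known from the cerebellum, gave the highest log2 difference of the set, 0.38 (95% interval -0.18 to 0.95), which did not pass.

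Of the AMPA subunits, *Gria4* was the one that passed. Its brachial values ran from 60.2 to 81.8 with a median of 66.1 TPM and its lumbar values from 39.3 to 52.2 with a median of 48.6 TPM, without overlap. The log2 difference was -0.51 (SE 0.08, adjusted p = 0.00183, limma). *Gria1*, *Gria2* and *Gria3* had log2 differences of -0.17, -0.17 and -0.39 and did not pass, the last with an adjusted p = 0.0782 by limma. As a share of AMPA subunit TPM, *Gria4* was 46.3% ± 1.99 in brachial and 40.8% ± 1.84 in lumbar libraries, and *Gria2* was 36.6% ± 1.41 and 40.8% ± 1.26 (SD, n = 6 each). These shares are a description and were not tested.

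None of the 5 kainate subunits passed, although 1, *Grik2*, had an unadjusted p under 0.05 by limma. The lowest log2 difference among them was that of *Grik2*, -0.45 (95% interval -0.81 to -0.10), and the highest that of *Grik1*, 0.07 (95% interval -0.20 to 0.34). *Grik3*, *Grik4* and *Grik5* lay at -0.28, -0.18 and -0.11. Their auxiliary subunits did pass. *Neto2*, the abundant one, ran from 44.2 to 52.4 with a median of 48.4 TPM at the brachial and from 34.0 to 44.5 with a median of 36.6 TPM at the lumbar level. A single lumbar library, KO replicate 3 at 44.5 TPM, overlapped the brachial range, and the log2 difference was -0.36 (SE 0.07, adjusted p = 0.00423, limma). *Neto1* ran from 0.931 to 2.73 with a median of 1.41 TPM in brachial and from 0.213 to 0.966 with a median of 0.592 TPM in lumbar libraries. Its log2 difference was -1.25 (SE 0.34, adjusted p = 0.0218, limma), with 1 lumbar library above the lowest brachial value.

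Among the metabotropic receptors the lumbar level was lower for *Grm7*, a presynaptic receptor coupled to inhibitory G proteins, and for *Grm5*, a receptor that acts through phospholipase C. *Grm7* ran from 6.23 to 11.5 with a median of 7.80 TPM at the brachial level and from 2.51 to 5.24 with a median of 4.33 TPM at the lumbar level, without overlap. Its log2 difference was -1.01 (SE 0.19, adjusted p = 0.00369, limma). *Grm5* ran from 4.72 to 9.83 with a median of 6.35 TPM and from 2.05 to 4.88 with a median of 3.93 TPM. The highest lumbar value exceeded the lowest brachial one, and the log2 difference was -0.83 (SE 0.21, adjusted p = 0.0145, limma). *Grm3*, the most abundant of the class, did not pass, at 10.8 ± 1.14 against 8.19 ± 1.84 TPM (SD, n = 6 each). *Grm4*, *Grm2* and *Grm8* had log2 differences of -0.41, 0.09 and -0.03 and did not pass. *Grid1*, whose product binds cerebellins across the synapse, ran from 6.23 to 10.9 with a median of 8.19 TPM and from 4.41 to 6.88 with a median of 5.99 TPM, with overlap, and its log2 difference was -0.50 (SE 0.14, adjusted p = 0.0237, limma).

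The transporters split. *Slc1a3* (chr15:8634124-8710807, minus strand) ran from 89.3 to 123 with a median of 104 TPM in brachial and from 63.6 to 84.5 with a median of 72.3 TPM in lumbar libraries. No lumbar library reached a brachial one, and the log2 difference was -0.52 (SE 0.08, adjusted p = 0.0014, limma). *Slc1a1* ran from 14.6 to 21.1 with a median of 17.6 TPM and from 7.10 to 13.6 with a median of 11.8 TPM, also without overlap, with a log2 difference of -0.70 (SE 0.14, adjusted p = 0.00474, limma). *Slc1a2* had a log2 difference of 0.08 (95% interval -0.26 to 0.42). The vesicular transporter *Slc17a6* was at 54.5 ± 3.29 and 51.6 ± 3.82 TPM (SD, n = 6 each), a log2 difference of -0.08 (95% interval -0.21 to 0.05, adjusted p = 0.391 by limma).

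No scaffold gene passed. The 4 Dlg genes had log2 differences from -0.31 for *Dlg2* to -0.04 for *Dlg1*, and that of *Dlg3* was -0.12. For *Dlg4* the 95% interval was -0.24 to 0.11 and for *Dlg1* it was -0.20 to 0.11. In the whole set 6 genes (*Gria4*, *Grin1*, *Grin3a*, *Grm7*, *Slc1a1* and *Slc1a3*) had all 6 lumbar libraries below all 6 brachial ones and 0 had them above. Over all genes tested 8.31% were separated in one direction or the other.

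**Figure D2:**
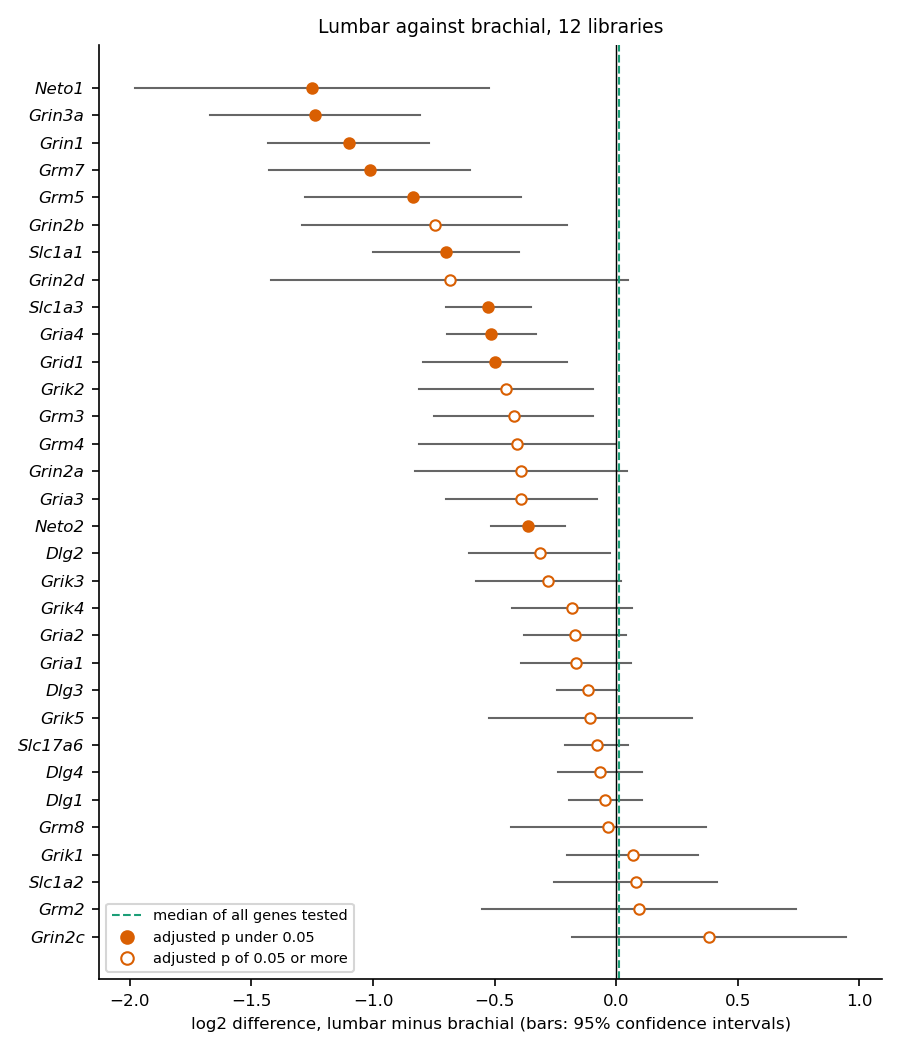
Log2 difference, lumbar minus brachial, of the 32 genes tested in 12 libraries, with 95% confidence intervals and filled points for adjusted p under 0.05. 28 of 32 points lie left of 0, and the 10 filled ones run from -1.25 for *Neto1* to -0.36 for *Neto2*.

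**Figure D3:**
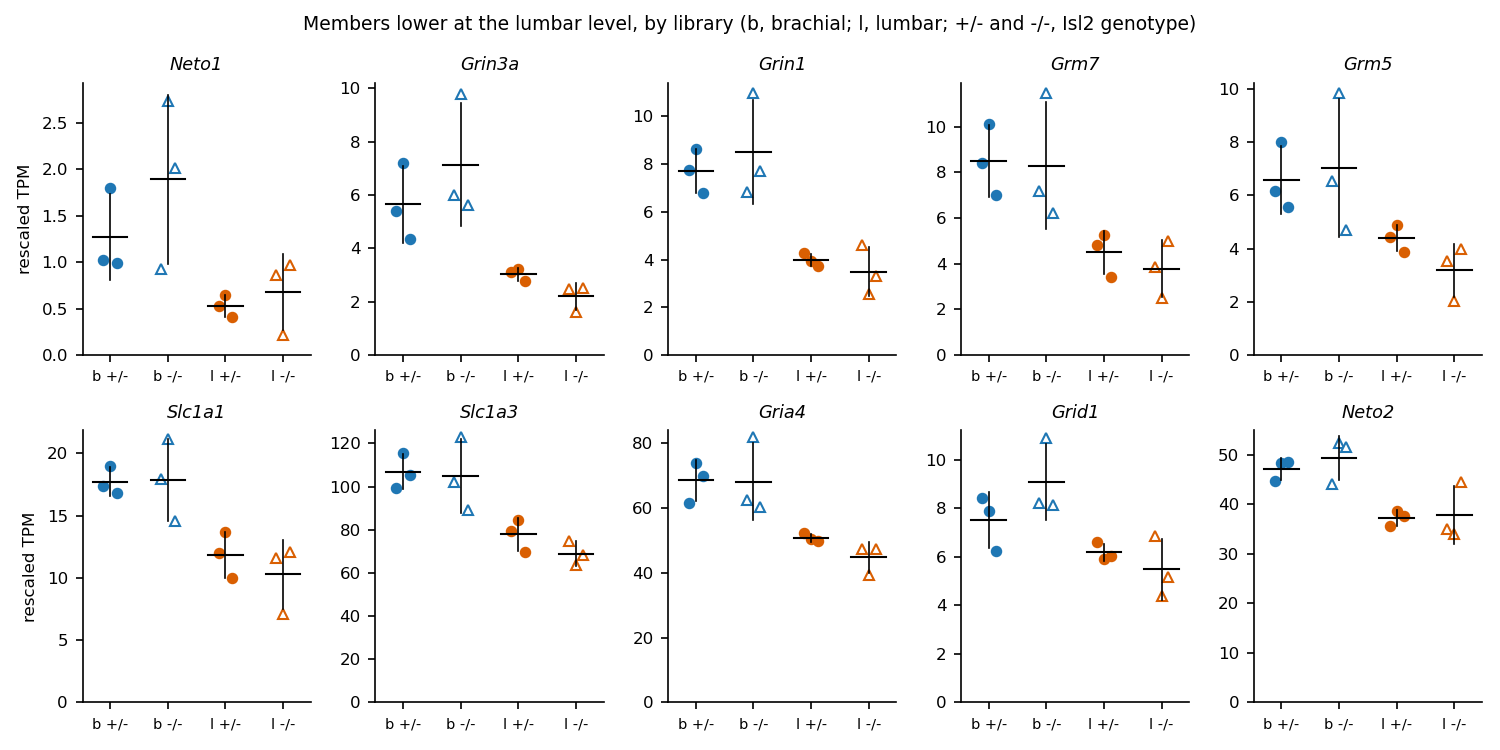
Rescaled TPM in each library of the 10 genes lower at the lumbar level, with the mean (wide line) and SD (thin line) of each group of 3. Brachial *Grin1* lies between 6.79 and 11.0 TPM and lumbar *Grin1* between 2.56 and 4.60 TPM, and KO replicate 2 is the highest brachial KO point in every panel.

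The same comparison was made within each genotype, and these share no library. In heterozygotes alone 4 genes of the set passed, all lower (*Gria4*, *Grin1*, *Slc1a3* and *Neto2*), against 2.93% of all genes. In KO libraries alone 1 passed, *Grin3a*, against 1.77% of all genes. The median log2 difference of the set was -0.17 in heterozygotes and -0.48 in KO, with 26 and 30 of 32 values negative, against 46.4% and 49.4% of all genes, and 25 genes were negative in both, against 32.2% of all genes. All 3 lumbar libraries lay below all 3 brachial ones for 11 genes in heterozygotes and 12 in KO, where separation in either direction was found for 25.9% and 29.1% of all genes. In heterozygotes *Slc1a2* lay above, with 33.0, 38.8 and 32.9 TPM in lumbar and 30.8, 29.2 and 26.4 TPM in brachial libraries.

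Promoter sequences are shown for 3 genes from different classes that were lower at the lumbar level without overlap, and for *Slc17a6*, an abundant gene that did not pass. RefSeq promoters (GRCm38.p6, the assembly called mm10 in the tables; 250 bases before to 50 after a start) were matched by symbol for 26 of the 36 genes, and the promoter nearest the gene start in the tables was taken. Sequences are 5′ to 3′ on the gene's strand. Capitals mark the homeodomain core TAAT and the GC box GGGCGG, each searched on both strands, so that they also appear as ATTA and CCGCCC, and overlapping matches run together.
*Grin1*, chr2:25319138-25319437, minus strand: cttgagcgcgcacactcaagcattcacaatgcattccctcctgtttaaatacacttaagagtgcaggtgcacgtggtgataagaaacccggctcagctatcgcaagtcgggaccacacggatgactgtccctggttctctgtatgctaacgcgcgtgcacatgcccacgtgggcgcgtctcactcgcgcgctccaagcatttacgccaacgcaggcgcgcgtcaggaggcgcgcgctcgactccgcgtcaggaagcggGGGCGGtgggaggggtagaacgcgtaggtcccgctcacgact
*Gria4*, chr9:4796185-4796484, minus strand: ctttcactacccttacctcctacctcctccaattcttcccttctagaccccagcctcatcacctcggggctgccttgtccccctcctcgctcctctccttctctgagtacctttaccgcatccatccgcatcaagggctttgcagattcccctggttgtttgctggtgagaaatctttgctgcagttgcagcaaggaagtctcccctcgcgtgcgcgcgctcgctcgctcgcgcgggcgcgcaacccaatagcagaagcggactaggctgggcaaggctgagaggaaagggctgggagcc
*Slc1a3*, chr15:8710758-8711057, minus strand: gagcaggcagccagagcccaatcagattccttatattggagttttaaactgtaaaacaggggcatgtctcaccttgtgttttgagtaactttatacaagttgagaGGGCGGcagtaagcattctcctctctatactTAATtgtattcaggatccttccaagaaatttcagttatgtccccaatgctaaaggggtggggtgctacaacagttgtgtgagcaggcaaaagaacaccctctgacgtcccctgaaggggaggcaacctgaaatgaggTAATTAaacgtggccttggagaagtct
*Slc17a6*, chr7:51621580-51621879, plus strand: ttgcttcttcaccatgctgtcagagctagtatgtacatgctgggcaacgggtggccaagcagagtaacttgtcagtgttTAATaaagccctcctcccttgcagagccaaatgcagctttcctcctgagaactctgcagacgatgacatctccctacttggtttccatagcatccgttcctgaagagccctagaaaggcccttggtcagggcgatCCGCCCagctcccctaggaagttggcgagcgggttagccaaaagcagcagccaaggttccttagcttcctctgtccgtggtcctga

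TAAT matches numbered 3 in *Slc1a3*, 1 in *Slc17a6* and 0 in *Grin1* and *Gria4*. GGGCGG was found 1 time each in *Slc1a3*, *Slc17a6* and *Grin1* and not in *Gria4*. Of 32851 RefSeq promoters of this length 58.0% held TAAT and 35.7% held GGGCGG on either strand, and of the 40 promoters of the set 47.5% held TAAT and 47.5% held GGGCGG. Guanine and cytosine made up 60.7% of the *Grin1*, 59.7% of the *Gria4*, 45.3% of the *Slc1a3* and 53.7% of the *Slc17a6* window. A match describes the letters and is not a bound site.

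Other genes of the same machinery were counted by list for the lumbar against brachial difference. Of the AMPA receptor auxiliary proteins, which traffic and slow the channel, 2 of 11 passed as lower and 1 as higher (median log2 difference -0.27). The most abundant, *Cnih2*, was at 99.1 ± 3.96 against 83.1 ± 13.0 TPM (SD, n = 6 each, brachial against lumbar) and did not pass, while *Cacng4* at 24.2 ± 4.91 against 18.4 ± 2.63 TPM and *Cacng2* at 8.15 ± 1.58 against 5.43 ± 1.62 TPM passed as lower and *Cnih3* at 4.77 ± 0.707 against 6.99 ± 1.66 TPM as higher. Of other postsynaptic scaffolds 3 of 14 passed as lower and 1 as higher (median log2 difference -0.13). Its most abundant gene, *Dlgap4*, did not pass. *Dlgap1* at 4.45 ± 1.07 against 2.45 ± 0.449 TPM, *Dlgap3* at 11.7 ± 0.826 against 7.77 ± 1.88 TPM and *Shank2* at 4.26 ± 1.41 against 2.68 ± 0.543 TPM, all proteins of the postsynaptic density, passed as lower, and *Homer3*, which links group I metabotropic receptors to internal calcium stores, was the higher one at 23.0 ± 2.71 against 28.8 ± 3.50 TPM.

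All 3 synaptic pentraxin genes, which cluster AMPA receptors from the outside, were lower, with a median log2 difference of -0.44. *Nptxr* was at 10.4 ± 1.63 against 6.50 ± 2.22 TPM, *Nptx1* at 8.77 ± 1.16 against 6.67 ± 0.847 TPM and *Nptx2* at 4.78 ± 0.772 against 3.47 ± 0.381 TPM. Of the genes of glutamate metabolism 1 of 8 passed as lower and 0 as higher (median log2 difference -0.07). The one that passed was *Glul*, the glutamine synthetase of glia and the most abundant of the list, at 127 ± 8.51 against 108 ± 2.79 TPM (SD, n = 6 each).

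Cell type markers were counted for the lumbar against brachial difference too, where 18.5% of all genes passed in either direction. Of the 9 motor neuron markers 2 were lower (*Prph* and *Slc5a7*) and 0 higher, and the summed level was 461 to 532 TPM in brachial and 205 to 345 TPM in lumbar libraries. Without *Prph*, the most abundant of them, the sum was 206 to 236 and 171 to 268 TPM, and over the 9 markers the median log2 difference was 0.09 with 5 positive. The other motor neuron markers, *Isl1* and *Mnx1* among them, did not pass. Of the 8 general neuronal markers 1 was lower (*Snap25*), with sums of 3883 to 4327 and 3657 to 4283 TPM. Without *Tubb3*, the most abundant, the sums were 1309.6 to 1722 and 1253 to 1429.5 TPM, and 7 of the 8 had negative log2 differences, with a median of -0.08. Of 10 progenitor and radial glia markers 4 were higher (*Nes*, *Hes5*, *Sox2* and *Mki67*) and 2 lower (*Fabp7* and *Olig2*), with sums of 1846 to 2713 and 1756 to 2195 TPM. Without *Fabp7*, the most abundant, these sums were 323 to 439 and 459.7 to 593 TPM, and the list had a median log2 difference of 0.29 with 7 of 10 positive.

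Markers of other cells were counted in the same way. For microglia 4 of 5 were lower (all but *Aif1*, summed level 13.1 to 23.3 against 6.70 to 13.2 TPM), for endothelium 2 of 4 (*Cldn5* and *Kdr*, 53.7 to 74.7 against 43.8 to 56.7 TPM) and for oligodendrocyte precursors, Schwann cells and crest 3 of the 5 tested (*Pdgfra*, *Erbb3* and *Cspg4*, 6.79 to 12.7 against 5.79 to 6.66 TPM). For mesenchyme and cartilage 1 of the 3 tested was lower (*Col1a2*), with sums of 35.3 to 51.0 and 39.4 to 53.7 TPM. Of 7 excitatory interneuron markers 2 were higher (*Sim1* and *Lhx9*) and 1 lower (*Barhl2*), with a median log2 difference of 0.23 and sums of 29.8 to 36.5 and 30.3 to 37.1 TPM. Inhibitory interneuron markers had 1 higher and 0 lower of 7 (*En1*, 50.6 to 76.0 against 56.3 to 72.9 TPM). None of the blood and sensory ganglion markers tested (8 and 4) passed, with sums of 2492 to 7082 against 2455 to 5115 and 13.2 to 19.8 against 12.8 to 17.4 TPM, and the skeletal muscle list, at 0.227 to 1.03 and 0.637 to 1.07 TPM in all, had 0 genes tested. *Runx3*, *Tlx2* and *Trpv1* of the ganglion list and *Myod1* of the muscle list were at or near 0. *Runx1* of the ganglion list, whose mean of 0.481 TPM was under the filter, ran from 0.489 to 1.30 TPM in brachial and from 0 to 0.103 TPM in lumbar libraries. It reached the filter in the KO libraries alone through its brachial values, so no test of it is given. The part of cell composition in the lumbar difference was not tested.

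The 32 genes tested had a median genomic span of 197.2 kb, with the shortest at 11.6 kb, against a median of 17.65 kb over all genes tested, and the difference between levels varied with span over all genes. Over all genes of more than 300 kb the median log2 difference was -0.20 and 29.1% were lower, and the 12 genes of the set in that range had a median of -0.42 with 4 lower. Between 30 and 100 kb the median of all genes was 0.00 with 11.2% lower, and the 8 genes of the set had a median of -0.39 with 3 lower. Between 100 and 300 kb these medians were -0.07 for all genes and -0.33 for 8 genes of the set, with 17.2% of all genes and 2 of the set lower. Between 10 and 30 kb they were 0.03 and 0.01, the latter over 4 genes, of which 1, *Grin1* (28.1 kb), was lower, against 8.5% of all genes. The part of gene span in the difference was not tested.

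The KO libraries numbered 2 deviated most from their level, in opposite directions. The brachial one also had the lowest small RNA share of TPM (23.7%, the next 30.85%) and the largest size factor (1.25, the next 1.08). In the brachial one 29 of 32 genes lay above the mean of their level, with a median deviation of 0.26 (log2), and in the lumbar one 3 of 32 did, with a median of -0.37. In the other 10 libraries that median lay between -0.20, in brachial heterozygote replicate 3, where 3 of 32 genes also lay above the mean, and 0.13. These KO libraries had medians of 0.12 and -0.10 over all genes longer than 100 kb, where brachial KO replicate 3 (0.15) and brachial heterozygote replicate 3 (-0.13) deviated further, and of -0.01 and 0.01 over all genes tested. Without both KO libraries numbered 2, 8 genes of the set remained lower and none was higher (*Gria4*, *Grin1*, *Grin3a*, *Grm5*, *Grm7*, *Slc1a1*, *Slc1a3* and *Neto2*), with a median log2 difference of -0.22 in the set and 9.85% of all genes passing. Leaving out 1 library at a time, the calls of *Neto1* (log2 difference -1.09) and *Grid1* (-0.41) were lost without brachial KO replicate 2. *Neto1* was also lost without brachial heterozygote replicate 2 (-1.15) and *Grid1* without lumbar KO replicate 3 (-0.46), and the other 8 genes were called in every such fit.

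The second question was what loss of *Isl2* does to these genes at each level. A gene was counted as changed with a log2 difference beyond 0.5 and an unadjusted p under 0.05. These are the thresholds of the study, which tested with DESeq2, whereas limma on TPM was used here. After adjustment limma called no gene of the set at either level, where 2 (brachial) and 1 (lumbar) had an unadjusted p under 0.05. The second brachial one was *Dlg2*, with a log2 difference of 0.36. Over all genes 1 and 0 passed after adjustment, and 2330 and 808 had an unadjusted p under 0.05. In brachial cords 1 of 32 genes, *Grin2c*, was higher in KO, 3.12% of the set against 3.08% of all genes. In lumbar cords 1 of 32, *Grm8*, was higher, against 1.77% of all genes.

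*Grin2c* stood at 1.51, 0.639 and 1.25 TPM in brachial heterozygotes and at 2.09, 2.08 and 1.74 TPM in brachial KO libraries. All KO values lay above the heterozygote ones, with a log2 difference of 0.82 (SE 0.32, adjusted p = 0.357, limma). At the lumbar level it stood at 1.80, 0.931 and 1.77 TPM in heterozygotes and at 2.45, 4.33 and 1.59 TPM in KO, where replicate 2 was the highest and replicate 3 lay inside the heterozygote range. The lumbar log2 difference was 0.79 (95% interval -0.11 to 1.70) and did not pass. The brachial call was lost without KO replicate 1 (log2 difference 0.77), without KO replicate 2, with a log2 difference of 0.78, and without heterozygote replicate 2, at 0.48.

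*Grm8*, a presynaptic metabotropic receptor of group III, stood at 2.33, 2.26 and 1.50 TPM in lumbar heterozygotes and at 2.91, 3.00 and 2.87 TPM in lumbar KO libraries. The KO libraries were all higher and close to each other, with a log2 difference of 0.53 (SE 0.21, adjusted p = 0.999, limma). In brachial cords it stood at 2.01, 2.59 and 2.07 and 2.54, 4.36 and 1.89 TPM, with overlap. Its lumbar call was lost without heterozygote replicate 3 (log2 difference 0.34), without KO replicate 1 (0.54), without KO replicate 2 (0.52) and without KO replicate 3 (0.55).

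Other NMDA subunits did not pass at either level. *Grin2b* stood at 7.07, 9.54 and 6.39 TPM in brachial heterozygotes and at 6.69, 14.1 and 15.5 TPM in brachial KO, a log2 difference of 0.58 (95% interval -0.15 to 1.31) in which KO replicates 2 and 3 lay above all heterozygotes and KO replicate 1 among them. *Grin3a* stood at 3.11, 3.22 and 2.76 TPM in lumbar heterozygotes and at 2.47, 1.63 and 2.52 TPM in lumbar KO, without overlap, and had a log2 difference of -0.46 (95% interval -0.95 to 0.02). *Grin2a* stood at 1.71, 1.65 and 1.56 and 1.22, 0.766 and 1.42 TPM, also without overlap. Its log2 difference was -0.53 (95% interval -1.14 to 0.08, adjusted p = 0.999 by limma). By its own DESeq2 test the study lists *Grin2a* among the genes downregulated in lumbar KO cords. In brachial cords *Grin2a* and *Grin3a* overlapped between the genotypes. Without brachial KO replicate 1 *Grin2b* (0.96), *Slc1a2* (0.60), *Dlg2* (0.50) and *Neto1* passed both thresholds as higher in KO, where 8.23% of all genes were called. Without lumbar KO replicate 3 *Grin2a* (-0.70), *Grin3a* (-0.57) and *Grm5* (-0.68) passed as lower and *Grin2c* (1.12) as higher, with 1.78% of all genes called. *Grik2* passed as higher without lumbar KO replicate 2, where 2.71% of all genes were called.

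The abundant genes of the set did not pass between genotypes. *Slc17a6* stood at 51.1, 52.2 and 54.0 TPM in brachial heterozygotes and at 54.1, 55.4 and 60.5 TPM in brachial KO, separated by a narrow margin, and its log2 difference was 0.11 (95% interval -0.06 to 0.28). *Gria4* stood at 52.2, 50.3 and 49.7 TPM in lumbar heterozygotes and at 47.5, 39.3 and 47.4 TPM in lumbar KO, with a log2 difference of -0.19 (95% interval -0.40 to 0.02). For *Slc1a3* the log2 difference was -0.04 in brachial and -0.17 in lumbar cords, with 95% intervals of -0.32 to 0.25 and -0.40 to 0.05. All 3 KO libraries were outside the heterozygote range for 2 genes in brachial cords (*Grin2c* and *Slc17a6*, both above) and for 4 in lumbar cords (*Grin2a*, *Grin3a* and *Gria4* below, *Grm8* above), against 20.1% and 9.94% of all genes.

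As a set the 32 genes tested were described by their signs and medians. In brachial cords 27 of 32 log2 differences were positive with a median of 0.14, against 48% positive and a median of -0.01 over all genes. In lumbar cords 23 of 32 were negative with a median of -0.11, against 52.6% negative and a median of -0.01 over all genes. The NMDA subunits had a class median of 0.40 in brachial and -0.29 in lumbar cords. Genes of more than 300 kb had a median of 0.21 in brachial and -0.03 in lumbar cords. Without KO replicate 2 of the level 11 of 32 were negative in brachial and 17 of 32 in lumbar cords, and the median of the set was 0.10 in brachial and -0.01 in lumbar cords. Other fits widened it, to 0.25 without brachial KO replicate 1, 0.22 without brachial heterozygote replicate 2, -0.20 without lumbar KO replicate 1, -0.18 without lumbar heterozygote replicate 3 and -0.21 in lumbar cords with embryo sex as a term. Without lumbar heterozygote replicate 1 it was -0.06.

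The other lists of the machinery had 0 genes past both thresholds at either level (limma), and 6 of 36 brachial and 0 of 36 lumbar genes with an unadjusted p under 0.05 (*Cacng2*, *Cacng4*, *Dlgap4*, *Grip2*, *Slc38a1* and *Slc38a2*, all with positive values), against 13.9% and 4.86% of all genes. The AMPA receptor auxiliary proteins had medians of 0.22 and 0.04 (brachial and lumbar log2 difference), the other scaffolds 0.30 and -0.03, the pentraxins 0.24 and -0.10, and glutamate metabolism -0.04 and -0.02. Motor neuron markers past both thresholds numbered 1 in brachial (*Isl2*) and 1 in lumbar cords (*Prph*), both lower in KO, and the lumbar sum ran from 264 to 345 TPM in heterozygotes and from 205 to 278 TPM in KO. At the lumbar level all 9 motor neuron markers had negative log2 differences (median -0.31) and 8 of 10 progenitor markers positive ones (median 0.23). In brachial cords all 7 inhibitory interneuron markers (median 0.40, 1 past both thresholds, *Gata3*) and 6 of 8 general neuronal markers (median 0.19) had positive ones, and 1 ganglion marker, *Prdm12*, passed as higher. The 8 blood genes all had positive log2 differences at both levels, with medians of 0.43 and 0.39, of which 0 of 8 in brachial and 1 of 8 in lumbar cords passed both thresholds. Summed blood TPM ran from 2492 to 4198 in brachial heterozygotes, 3472 to 7082 in brachial KO, 2455 to 3926 in lumbar heterozygotes and 3198 to 5115 in lumbar KO. The part of these cells in the genotype values was not tested.

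**Figure D4:**
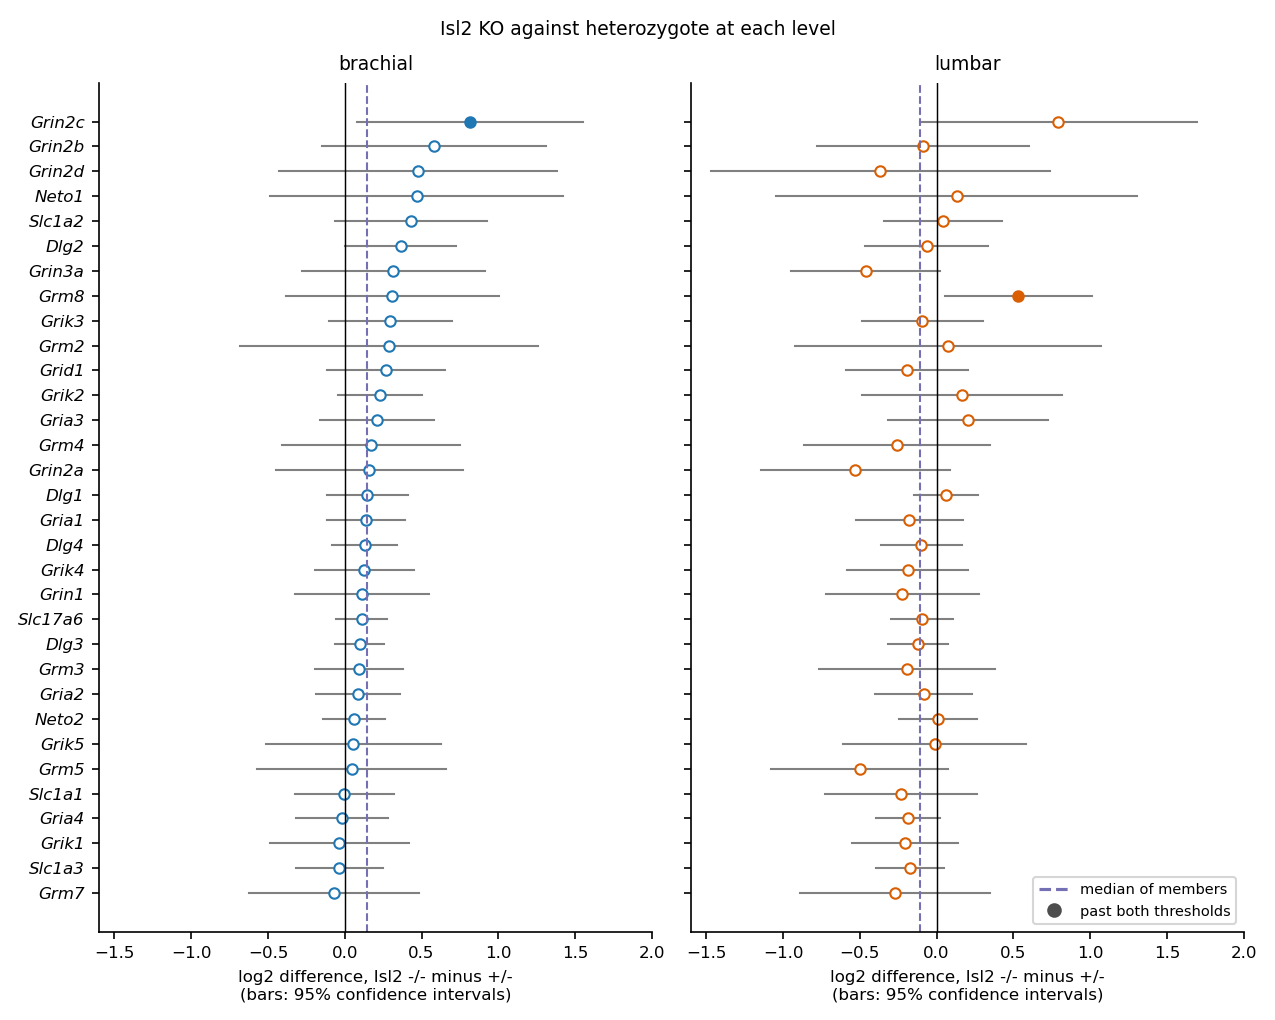
Log2 difference, *Isl2* -/- minus +/-, of the 32 genes tested at the brachial (left) and lumbar (right) level, with 95% confidence intervals, filled points for genes past both thresholds and a dashed line at the median of the set. *Grin2c* is filled at the brachial and *Grm8* at the lumbar level, and the medians are 0.14 and -0.11.

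Whether the genotype difference itself differed between the levels was tested as an interaction over all 12 libraries. After adjustment limma called 0 of 16706 genes, and an unadjusted p under 0.05 was found for 738 of them, or 4.42%. In the set 1 gene did, *Grin3a*, with an interaction of -0.78 (SE 0.35, adjusted p = 0.812, limma). Its log2 difference between genotypes was 0.32 in brachial and -0.46 in lumbar cords. *Slc17a6*, *Grin2a* and *Grid1* had interactions of -0.20, -0.69 and -0.46 and did not pass. The interaction was negative for 31 of 32 genes, with a median of -0.23, against 50.4% negative and a median of 0.00 over all genes. Other neuronal lists had negative interactions as well, 7 of 8 general neuronal markers, 7 of 7 inhibitory interneuron markers, 8 of 9 motor neuron markers and 11 of 14 other scaffolds, with medians of -0.28, -0.26, -0.20 and -0.27. Of the progenitor markers 4 of 10 were negative, with a median of 0.06. Whether the set differed from these lists was not tested. The genes of the set share libraries and are not independent. An unadjusted p under 0.05 was found for 5 genes of the set without brachial KO replicate 1, for 4 without lumbar KO replicate 1, for 4 without lumbar KO replicate 3 and for 3 with embryo sex as a term, where the medians were -0.29, -0.35, -0.30 and -0.34. For TPM as deposited the count was 3 and the median -0.39, against -0.17 over all genes. Without lumbar KO replicate 2 the interaction was negative for 23 of 32, and without both KO libraries numbered 2, which lie on opposite sides of this difference, for 17 of 32 with a median of -0.09.

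The composition of the receptor classes is given as shares of their summed TPM, brachial against lumbar, as a description (SD, n = 6 each). Among NMDA subunits *Grin1* held 28.3% ± 3.71 against 22.5% ± 1.70, *Grin2b* 32.9% ± 5.96 against 33.8% ± 5.65, *Grin3a* 21.9% ± 3.27 against 15.8% ± 2.73 and *Grin2c* 5.50% ± 2.13 against 13.8% ± 9.84. The last spread most between lumbar libraries, up to 33.3% in KO replicate 2. Among metabotropic receptors *Grm3* held 34.5% ± 2.43 against 38.5% ± 3.72, *Grm7* 26.4% ± 2.52 against 19.4% ± 2.15 and *Grm5* 21.3% ± 2.40 against 17.8% ± 2.60. Summed over each class, NMDA subunits stood at 29.3 ± 7.64 against 16.5 ± 2.47 TPM, AMPA subunits at 147 ± 16.5 against 117 ± 12.6 TPM and metabotropic receptors at 31.6 ± 5.62 against 21.1 ± 3.51 TPM.

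**Figure D5:**
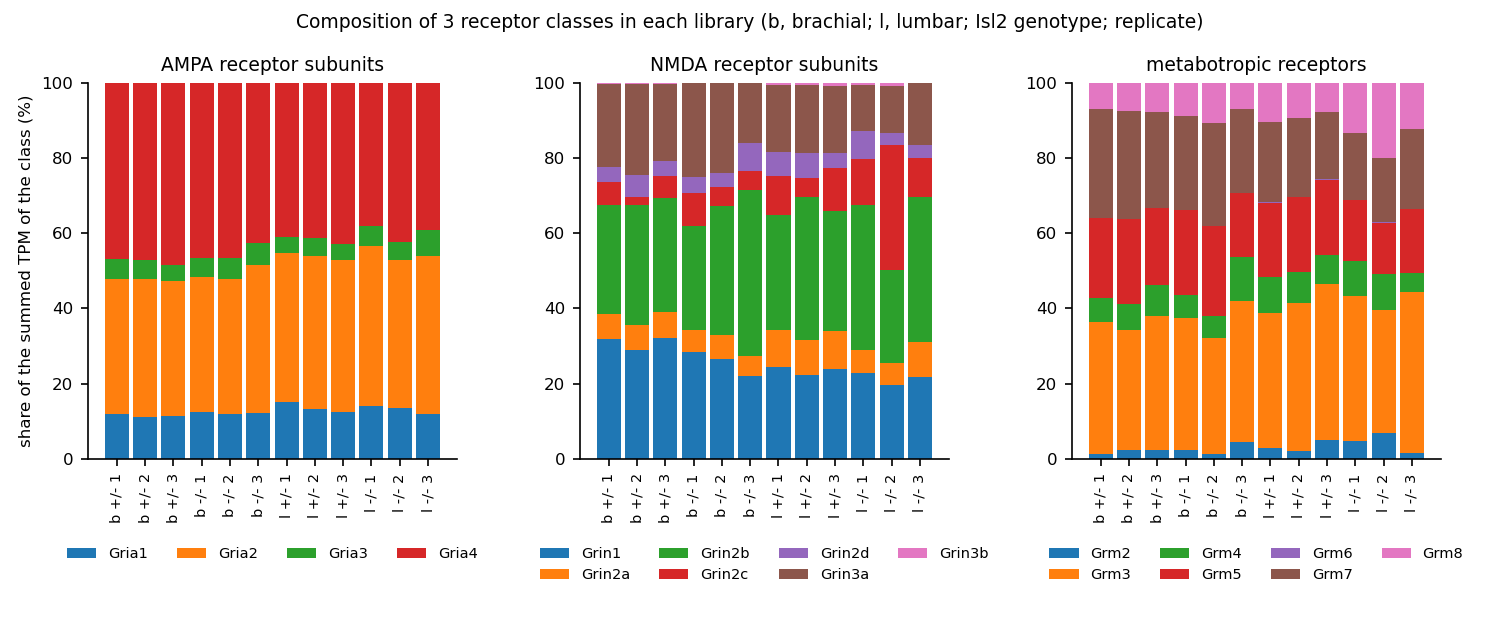
Share of the summed TPM of the AMPA, NMDA and metabotropic receptor classes held by each gene (stacked bars, %) in each of the 12 libraries. *Gria4* and *Gria2* fill most of each AMPA bar, and *Grin2c* fills 33.3% of the NMDA bar of lumbar KO replicate 2.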

How the data were processed

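Ribosome-depleted, stranded total RNA was sequenced. Per the labels and the study's methods the authors trimmed reads with Trimmomatic 0.38, aligned them to mm10 with HISAT2 2.1.0 and Bowtie2 2.3.4.1, and estimated abundance with StringTie 2.1.3b. The deposited tables, 1 per library, hold coverage (a signal), FPKM and TPM per NCBI gene ID, and no read counts, so a count test was not used. 45679 of 45777 IDs were matched to symbols in RefSeq. For the tests each library's TPM was divided by a size factor (median of ratios over 12 libraries), genes with a mean of at least 0.5 in the libraries of a fit were kept, and limma 3.58.1 (R 4.3.3; eBayes with trend, Benjamini-Hochberg adjustment over all genes) was run on log2(TPM + 0.1). Fold changes are on that scale and understate the change of low genes. Between levels the fit held 12 libraries with genotype as covariate, and between genotypes the 6 libraries of a level. The fits were tested on simulated data. Aligned depth limits precision for genes near the minimum. Members and lists were chosen with earlier results of these data known. All members are named; of each other list at most 4 genes, those of highest mean TPM, were to be named, and others were added, after their values were seen, where a count was small. Alternatives changed the scaling, unit, pseudocount, filter, trend, block and libraries. A few marker genes and the counts that need them are not reported here. Figures were drawn with matplotlib 3.10.9.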

Additional observations from a re-analysis of the deposited data

How the results depend on the processing

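Between levels the 10 lower genes kept their sign in all 270 refits (27 alternatives each), and 248 of these kept the call. The count of lower genes was 4 with heterozygotes only and 1 with KO only, where fewer libraries were used, and 8 to 12 without 1 library. With deposited TPM the median difference of all genes was -0.12 between levels and 0.16 between brachial genotypes (log2), against 0.01 and -0.01 after rescaling; the set's medians were then -0.51 and 0.32. Genes near 0 changed sign between levels (log2 difference): with deposited TPM *Grik1* -0.0690, *Slc1a2* -0.0594 and *Grm2* -0.0268; with quantile normalization *Grm8* 0.0144; with heterozygotes only *Dlg4* 0.0495 and *Slc17a6* 0.0212; with KO only *Grik1* -0.0159, *Slc1a2* -0.112, *Grm2* -0.0132 and *Grm8* 0.0805; with embryo sex as a term *Grm2* -0.00642 and *Grm8* 0.0177; and without both KO libraries numbered 2 *Grik5* 0.00998, *Grm2* -0.0743 and *Grm8* 0.0672. Leaving out 1 library gave -0.0746 to 0.00550 for *Dlg1*, -0.195 to 0.0375 for *Grik5*, -0.0251 to 0.291 for *Grm2* and -0.160 to 0.0983 for *Grm8*. Between brachial genotypes the count of 1 became 3 with deposited TPM, 0 with quantile normalization, pseudocount 1, all 12 libraries in one fit or adjusted p, and 0 to 4 without 1 library (4 without KO replicate 1). Between lumbar genotypes it became 0 with deposited TPM, pseudocount 1, all 12 libraries or adjusted p, 2 with quantile normalization, coverage or no trend, 4 with embryo sex as a term, and 0 to 4 without 1 library (4 without KO replicate 3). Of 27 brachial and 26 lumbar genotype differences with neither a call nor an unadjusted p under 0.1 (brachial *Grin2b* also left aside), 14 and 14 changed sign under some alternative. The sex term and the setting without both libraries numbered 2 were chosen after seeing the data. The interaction called 0 genes of the set under every alternative run. With the replicate number as a block the counts were 9, 1 and 1 (levels, brachial and lumbar genotypes) and 0 for the interaction. Between levels the call lost was that of *Grid1*. Of the 6 same-numbered pairs of brachial and lumbar libraries of a genotype, 3 were of unlike sex, and deviations correlated at -0.21 to 0.34. Same-numbered heterozygote and KO libraries, at -0.21 to 0.23, are different embryos by genotype. The labels do not say that a number marks the same embryo, so the numbers were not taken as pairs. The causes were not tested.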

Other observations

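Embryo sex, read from Y-linked transcripts, was unevenly spread, with 1 male library among 3 lumbar heterozygotes and 2 among 3 lumbar KO. With sex as a term, added after seeing the data, 4 genes of the set passed both thresholds between lumbar genotypes, and 2.50% of all genes did. *Grin2a* had a log2 difference of -0.65, *Grin3a* of -0.58 and *Grm5* of -0.68, all lower in KO, and *Grin2c* of 1.12, higher. *Grm8* no longer passed, at 0.50. In brachial cords, with 2 male libraries in each genotype, 1 gene passed with the term, *Grin2c*.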
